A study of Homo sapiens with 28 samples.

Results

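The 42 genes described here are human cell cycle genes, chosen by symbol from 19821 protein-coding genes on chromosomes 1 to 22 and X of the RefSeq annotation of GRCh38. They fall into 25 genes of DNA replication and its onset and 17 genes of mitosis, among which CCNA2, a cyclin of S phase and G2, was counted. A gene was counted in a peak list when a peak overlapped, by at least 1 bp, the window within 1 kb of either annotated gene end. The share of all 19821 genes, or of all genes in the same class, stands beside the first count of each list and comparison. Some counts by role, counts of peaks by gene end and distances from the start have none.

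The lists come from chromatin immunoprecipitation and sequencing (ChIP-seq) in cells of T47D, an established line from a luminal breast cancer. ZHX2, CTCF and histone H3 acetylated at lysine 27 (H3K27ac) were each precipitated from hypoxic and from normoxic cells. A Flag tag was precipitated from hypoxic cells carrying PA ZHX2, a mutant form, and from hypoxic cells carrying WT ZHX2. Each of these 8 groups has 2 samples and 1 deposited peak list, so a difference between a pair of lists has no replicate check. The labels name the mutant by its letters alone and give neither the oxygen level nor the length of hypoxia. They mention lentiviral infection and drug selection without saying which cells were infected, and the sources used here do not say whether the Flag cells kept their own ZHX2. Another 12 samples had no antibody, 4 of them with Flag in their title, and they have no peak list here. H3K27ac lay at 6 of 6 luminal breast markers and at 0 of 3 basal markers in hypoxia and in normoxia, and at 1 of 3 immune, 1 of 3 stromal and 1 of 2 endothelial markers.

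Cells copy their DNA in S phase and divide it in mitosis. Licensing factors load the MCM helicase onto replication origins, cyclin E with CDK2 starts S phase, and cyclin B with CDK1 starts mitosis. E2F factors drive many replication genes through sites with the letters TTCCCGC or TTGGCGC. Many mitosis genes carry instead a cell cycle gene homology region (CHR, TTTGAA or TTCGAA) near their start, often beside CCAAT boxes, which bind NF-Y. ZHX2 is a zinc finger and homeobox transcription factor and a substrate of the VHL ubiquitin ligase. CTCF is a zinc finger protein of insulators and the anchors of chromatin loops. H3K27ac is found at promoters and enhancers in use.

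The promoter sequences of 6 genes are shown because their peaks differ in the ways described below. They are the 250 bases before the gene start, from RefSeq, build GRCh38.p14, read from 5′ to 3′ along the gene, with capitals marking E2F, CHR and CCAAT letters on either strand. RRM1 (chr11:4094435-4094684 on the plus strand) had the highest ZHX2 fold of the 42 genes. MCM3 (chr6:52284743-52284992 on the minus strand) had a WT Flag region and no ZHX2 peak. CDC6 (chr17:40287629-40287878 on the plus strand) had a ZHX2 and a CTCF peak in hypoxia alone, and its E2F letters lie after the start, outside the stretch shown. BUB1B (chr15:40160819-40161068 on the plus strand) and CCNB2 (chr15:59104896-59105145 on the plus strand) are mitosis genes with ZHX2 in hypoxia alone. MKI67 (chr10:128126424-128126673 on the minus strand) had WT Flag alone, and its second CHR shares letters with a CCAAT box on the other strand.
RRM1: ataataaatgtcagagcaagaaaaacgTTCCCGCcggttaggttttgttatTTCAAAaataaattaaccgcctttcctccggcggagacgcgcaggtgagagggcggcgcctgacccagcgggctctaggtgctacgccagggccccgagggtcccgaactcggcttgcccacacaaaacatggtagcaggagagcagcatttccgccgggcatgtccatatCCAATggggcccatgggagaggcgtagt
MCM3: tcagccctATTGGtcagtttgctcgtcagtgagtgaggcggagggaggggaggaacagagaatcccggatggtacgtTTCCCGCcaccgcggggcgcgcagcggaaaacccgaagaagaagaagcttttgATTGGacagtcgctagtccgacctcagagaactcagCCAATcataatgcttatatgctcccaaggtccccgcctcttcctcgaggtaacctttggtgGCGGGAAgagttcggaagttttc
CDC6: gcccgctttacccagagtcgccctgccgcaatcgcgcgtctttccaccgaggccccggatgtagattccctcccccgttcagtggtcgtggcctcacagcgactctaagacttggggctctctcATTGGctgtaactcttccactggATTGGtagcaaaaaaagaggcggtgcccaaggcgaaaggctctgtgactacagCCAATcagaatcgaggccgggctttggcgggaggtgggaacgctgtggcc
BUB1B: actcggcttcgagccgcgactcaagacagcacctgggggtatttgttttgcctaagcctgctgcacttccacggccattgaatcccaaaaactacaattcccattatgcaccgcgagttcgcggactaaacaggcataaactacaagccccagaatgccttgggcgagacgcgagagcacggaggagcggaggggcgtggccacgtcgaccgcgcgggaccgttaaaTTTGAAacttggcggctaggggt
CCNB2: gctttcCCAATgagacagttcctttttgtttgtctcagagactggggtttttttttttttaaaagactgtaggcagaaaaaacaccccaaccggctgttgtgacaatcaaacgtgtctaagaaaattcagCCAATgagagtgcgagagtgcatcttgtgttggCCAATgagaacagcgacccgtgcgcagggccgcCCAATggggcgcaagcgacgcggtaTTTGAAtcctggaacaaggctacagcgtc
MKI67: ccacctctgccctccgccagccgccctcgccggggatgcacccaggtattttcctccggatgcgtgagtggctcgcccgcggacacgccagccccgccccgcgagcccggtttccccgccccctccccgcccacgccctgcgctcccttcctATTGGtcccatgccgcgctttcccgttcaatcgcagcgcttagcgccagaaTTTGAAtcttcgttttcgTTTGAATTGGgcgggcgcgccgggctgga

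The promoter table holds 33 of the 42 genes, 20 of replication and 13 of mitosis, and 15812 protein-coding genes in all. MCM4, MCM5, CCNE2, CDK2, E2F8, FOXM1, UBE2C, AURKA and BIRC5 are not in it. Within its window of 300 bases, 250 before to 50 after the start, E2F letters lay in 15 of 20 replication genes (75.0%) and in 3 of 13 mitosis genes (23.1%), against 12.3% of all promoters. CHR letters had the opposite order, with 3 of 20 replication genes (15.0%), 8 of 13 mitosis genes (61.5%) and 13.5% of all promoters. CCAAT or its reverse complement lay in 15 of 20 replication and 10 of 13 mitosis promoters, against 36.3% of all. The replication and mitosis groups thus differ in promoter letters, but the E2F and CHR letters were picked as known sites of these classes. The difference was foreseen and is no independent support for the split.

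Letters of the hypoxia response and of CTCF did not set the genes apart from the rest, and no letters for ZHX2 were counted. The hypoxia response letters ACGTG or GCGTG lay in 18 of 33 promoters of the cell cycle genes (54.5%) and in 55.9% of all. The CTCF core AGGNGGC lay in 14 of 33 (42.4%) and in 42.1% of all. Median GC content was 64.7% over the 33 promoters and 62.7% over all. These are matches of short letters on both strands and not measured sites.

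H3K27ac lay at nearly every one of the genes. In hypoxia 41 of 42 genes (97.6%) had a peak at an end, against 65.2% of all genes, and in normoxia the same count of 41 stood against 64.4%. The 24 of 25 replication genes and 17 of 17 mitosis genes were the same in both conditions, and no member had the mark in hypoxia alone or in normoxia alone, classes that held 1.45% and 0.580% of all genes. The exception in both lists, where 34.2% of all genes had no H3K27ac peak, was ORC1, which encodes the largest subunit of the origin recognition complex. Its annotated end at position 52409503 of chromosome 1 lies 5080 bp from the start in the promoter table, at 52404423, and no peak of any list lay at its ends. At that start, however, H3K27ac had a fold of 9.17 in hypoxia and 10.5 in normoxia. ZHX2 there had a fold of 5.82 in hypoxia and 2.72 in normoxia, CTCF 37.2 in hypoxia and 40.7 in normoxia, and a Flag region of 3015 bp was in both the PA and the WT list. Single H3K27ac peaks could still differ at genes with the mark in both conditions. At the far ends of CCNA2 (fold 3.04) and PLK1 (2.72) a hypoxia peak overlapped no normoxia H3K27ac peak.

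A fold here is the authors' enrichment over background for a peak, used only to rank peaks within a list. The highest H3K27ac folds in hypoxia were at CDC25C, the phosphatase that activates CDK1 (30.6), MCM5, a helicase subunit (24.9), CDC20, an activator of the anaphase-promoting complex (19.8), E2F3 (19.5) and RRM2, the small subunit of ribonucleotide reductase (18.2). In normoxia they were at CDC25C (31.0), CDC6, a licensing factor (28.2), FOXM1, a transcription factor for mitosis genes (24.3), MCM5 (23.4) and the mitotic kinase gene AURKA (23.3). The CDC6 value belongs to a domain of 40421 bp at the far end of the gene, while the normoxia peak at its start had a fold of 8.02. The MCM5 values belong to a peak at the end with the higher coordinate (chr22:35450292-35454252 in hypoxia), and at the end where its ZHX2 peaks lie H3K27ac had 7.70 in hypoxia and 9.99 in normoxia. The CDC20 value in hypoxia also belongs to a far-end domain (chr1:43362152-43369729), and the peak at its start had 13.4 in hypoxia and 18.1 in normoxia. The median best fold of the genes was at the 81.4th percentile of the hypoxia list and the 84.0th percentile of the normoxia list. Genes with a peak in general had medians at the 84.3rd and 83.2nd percentiles of the same lists, so the mark was neither stronger nor weaker at the cell cycle genes by more than a few percentiles.

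**Figure D1:**
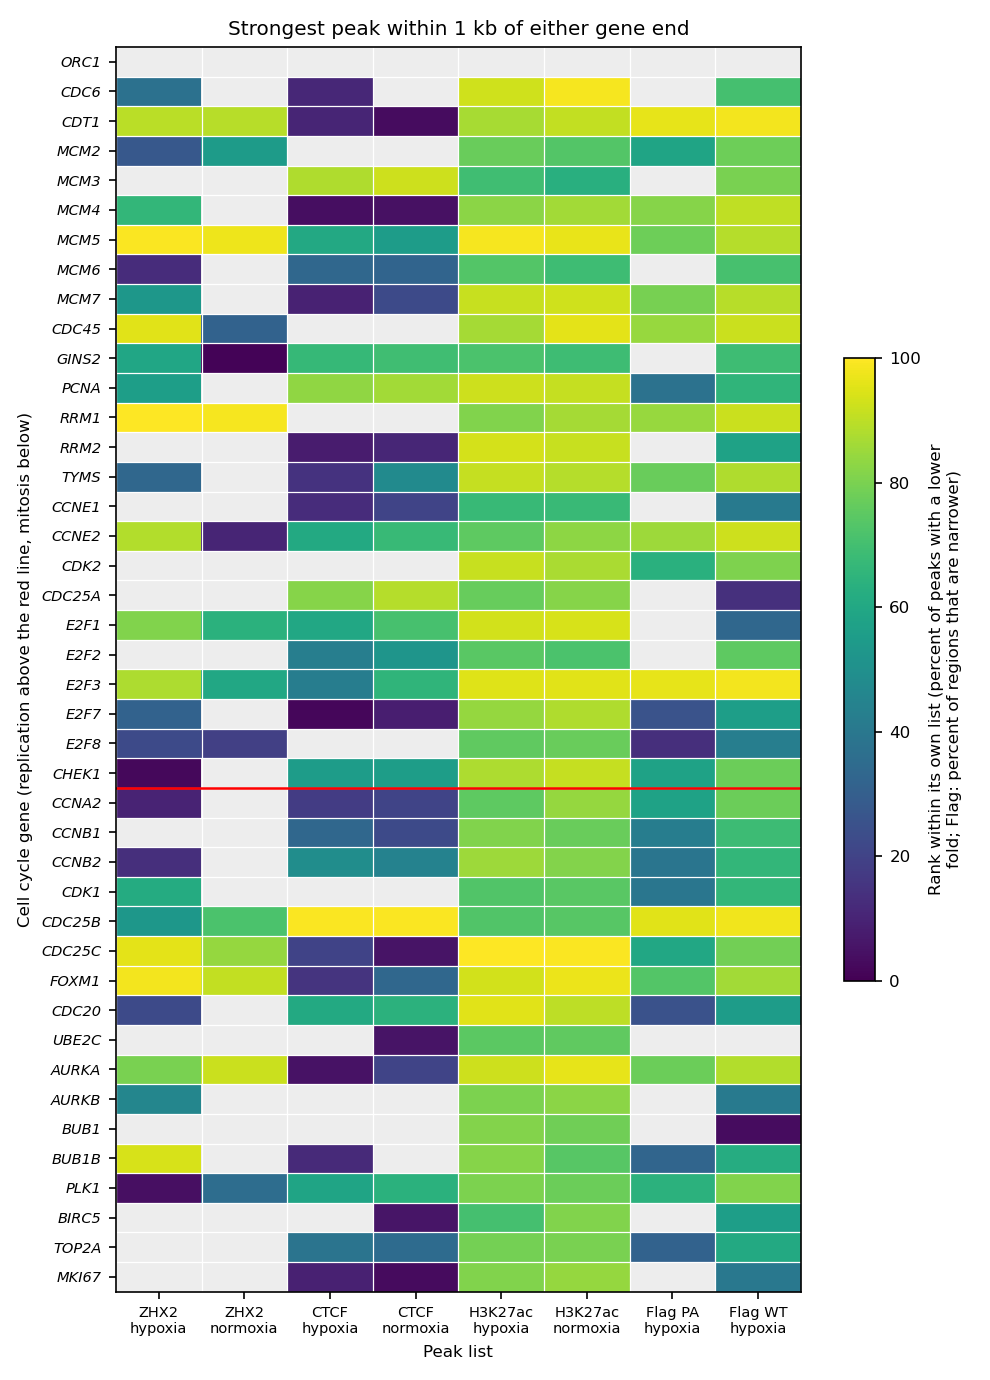
The 42 cell cycle genes (rows, replication above the red line and mitosis below it) in the 8 peak lists (columns). Colour gives the rank of the best peak at a gene end within its own list, as the percent of peaks with a lower fold (of narrower regions in the Flag lists), and light grey marks no peak. The H3K27ac columns are filled except at ORC1, the ZHX2 normoxia column holds the fewest genes, 15, and RRM1 and MCM5 stand near the top of both ZHX2 lists.

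ZHX2 lay at more of the genes in hypoxia than in normoxia. The hypoxia list held 29 of 42 (69.0%), against 56.3% of all genes, and the normoxia list 15 of 42 (35.7%), against 29.7%. A ZHX2 peak was present in hypoxia alone at 14 genes (33.3%, against 28.4% of all), in normoxia alone at none (against 1.85%) and in both at 15 (against 27.8%). The hypoxia list is also longer, with 32343 peaks against 14586. Among genes with ZHX2 in hypoxia, 14 of 29 cell cycle genes (48.3%) and 50.6% of all genes had none in normoxia, so the step between conditions was no larger at cell cycle genes than elsewhere.

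The share also has to be read against active promoters. Among genes with H3K27ac at an end in hypoxia, ZHX2 lay at 29 of 41 cell cycle genes (70.7%) and at 80.2% of all such genes. In normoxia the shares were 15 of 41 (36.6%) and 41.2%. The cell cycle genes thus lay above the share of all genes and below that of genes with H3K27ac. Of the 42 genes, 19 (45.2%) share their windows with an end of another protein-coding gene, against 28.6% of all genes, and a peak there cannot be assigned to 1 gene.

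The 5 highest ZHX2 folds in hypoxia were at genes that had a ZHX2 peak in normoxia too. RRM1 encodes the large subunit of ribonucleotide reductase, which makes deoxynucleotides. Its peak in hypoxia had a fold of 26.9 (chr11:4093973-4095063, 99.8th percentile of the list) with the summit 9 bp after the start, and its normoxia peak a fold of 11.5 (chr11:4094358-4094897, 98.7th percentile). Both cover the whole RRM1 sequence shown above. MCM5 followed with a fold of 17.9 in hypoxia (chr22:35399541-35400364) and 9.11 in normoxia (chr22:35399522-35399980). FOXM1 had 9.27 in hypoxia and 5.60 in normoxia, at a start shared with RHNO1. CDC25C had 6.99 in hypoxia and 4.68 in normoxia, and CDC45, a component of the replicative helicase, 6.81 in hypoxia and 3.0 in normoxia. AURKA had 4.42 in hypoxia and 5.90 in normoxia, and CDT1, a licensing factor, 5.37 in hypoxia and 5.23 in normoxia. These 2 complete the 5 highest of the normoxia list, at its 92.1st and 89.1st percentiles. Ends of other genes also lie in the windows of CDC25C (FAM53C), CDC45 (UFD1), AURKA (CSTF1 and FAM210B) and CDT1 (APRT). The hypoxia peak of RRM1 also lay within 1 kb of an end of STIM1.

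Over the whole group the ranks were lower. The median best fold over the 29 genes in hypoxia was 3.48 (56.0th percentile of the list), against 3.97 (70.9th) over all genes with a peak. In normoxia the median was 3.65 (63.8th percentile) over 15 genes, against 3.64 (62.3rd). The ranks were spread widely. Of the 29 best peaks in hypoxia, 11 lay above the 75th percentile of the list, 11 between the 25th and the 75th and 7 below the 25th, and RRM1 and MCM5 were near the top of both lists.

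The 14 genes with ZHX2 in hypoxia alone spanned most roles. Of 12 genes of licensing and the fork, 5 belonged to them: the helicase subunits MCM4 (fold 3.78), MCM6 (2.53) and MCM7 (3.41), CDC6 (3.06) and PCNA, the sliding clamp (3.48). TYMS, which makes thymidylate (2.97), the repressor E2F7 (2.93), the checkpoint kinase gene CHEK1 (2.08) and CCNA2, cyclin A2 (2.44), were 1 each of their roles. Mitotic entry gave CDK1 (3.64) and CCNB2, cyclin B2 (2.55). The spindle and mitotic exit gave BUB1B, the checkpoint kinase BUBR1 (6.27), AURKB, the kinase of the chromosomal passenger complex (3.24), and CDC20 (2.75). BUB1B alone of the 14 ranked high, at the 94.1st percentile of the hypoxia list (chr15:40160746-40161413), and its peak covers the BUB1B sequence above with the CHR. The CDC6 peak was narrow, 200 bp wide at chr17:40287537-40287736 and at the 37.4th percentile, and reaches into the first part of the CDC6 sequence. The CDC20 peak lay at the far end of the gene, beside ELOVL1, and not at its start. At MCM4 a normoxia ZHX2 peak lay just beyond the 1 kb window, and with a 3 kb window MCM4 left this class. Ends of other genes also lie in the windows of MCM4 (PRKDC), MCM7 (AP4M1 and COPS6), PCNA (CDS2), CHEK1 (ACRV1) and CCNA2 (BBS7 and EXOSC9).

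Because the lists differ in length, the same count was taken on the strongest peaks of the hypoxia list, as many as the normoxia list holds. ZHX2 was then at 15 cell cycle genes in each condition (35.7%), against 37.6% of all genes in hypoxia and 29.7% in normoxia. Hypoxia alone held 4 of the genes (9.52%, against 15.4% of all genes), CDK1, BUB1B, PCNA and MCM4, the last with a normoxia peak just beyond its window. Normoxia alone held 4 (9.52%, against 7.39% of all), MCM2, E2F8, PLK1 and CDC25B. With equal numbers of peaks the counts of cell cycle genes were thus equal. Their hypoxia share then lay slightly below that of all genes, whereas with the full list it lay above (69.0% against 56.3%). The share in hypoxia alone also lay below that of all genes, against 33.3% and 28.4% with the full lists.

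Even with a peak in both lists the position could differ. E2F1, an activator of replication genes, had its hypoxia peak (fold 4.52) at its far end, which it shares with NECAB3, and its normoxia peak (3.65) 72 bp after its start. PLK1, a mitotic kinase gene, had a hypoxia peak (2.20) whose summit lay 13 bp before its start and a normoxia peak (3.06) 1303 bp after it. At E2F8, a repressor of the E2F family, the peaks (2.76 in hypoxia, 2.73 in normoxia) did not overlap either. Of the 35 hypoxia peaks at the ends of these genes, 14 overlapped a normoxia ZHX2 peak (40.0%), against 40.2% of the 12466 hypoxia peaks at the ends of any gene.

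No ZHX2 peak lay in either list at the ends of 13 genes (31.0%, against 41.9% of all genes). They include both genes of mitotic chromosomes, TOP2A (topoisomerase II alpha) and MKI67 (the proliferation antigen Ki-67). They also include 3 of the 4 G1/S genes, CCNE1 (cyclin E1), CDK2 and CDC25A, the phosphatase of early S phase, while CCNE2 (cyclin E2) had ZHX2 in hypoxia (5.18) and normoxia (2.51). The others were ORC1 (at its annotated ends), MCM3, RRM2, E2F2, CCNB1 (cyclin B1), UBE2C (an enzyme of the anaphase-promoting complex), BUB1 and BIRC5 (survivin). All of them but ORC1 had H3K27ac at an end in both conditions.

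**Figure D2:**
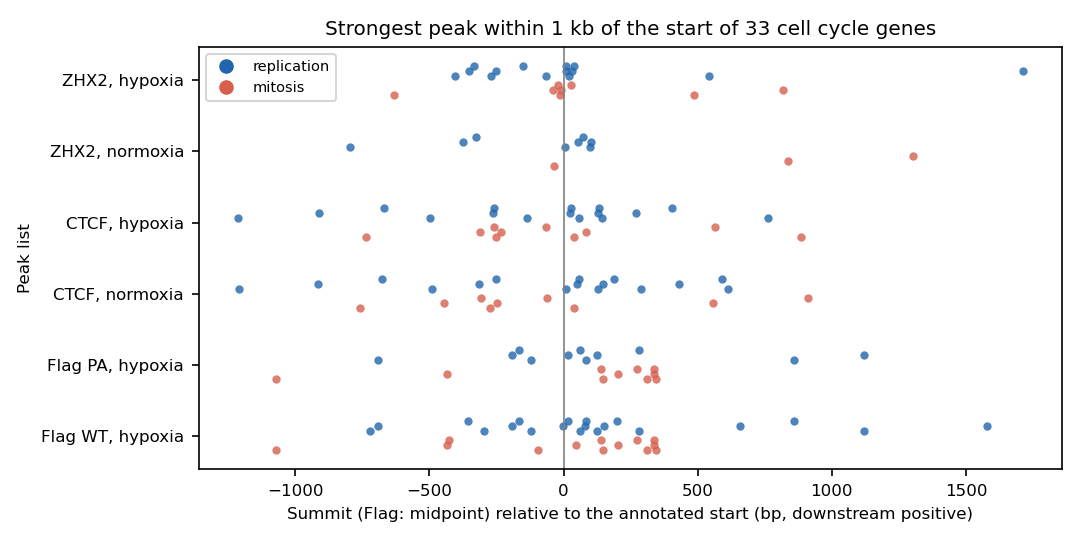
Distance of the strongest peak within 1 kb of the start of each of the 33 genes in the promoter table (x axis, bp, negative before the start), by ZHX2, CTCF and Flag list, with replication genes in blue and mitosis genes in red. Points are summits, or midpoints in the Flag lists, and may lie beyond 1 kb because the peak, not its centre, had to reach the window. ZHX2 points gather at the start, at a median of 108 bp in hypoxia and 101 bp for normoxia, and CTCF points lie farther out, at 258 bp in hypoxia and 307 bp in normoxia. Distances over all genes were not computed.

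The ZHX2 peaks lay mainly at starts. Of 28 hypoxia peaks at the ends of the 33 genes in the promoter table, 26 were within 1 kb of the start and 2 were at the other end. All 11 normoxia peaks were at the start. The best summit of a gene lay at a median distance of 108 bp from the start in hypoxia and 101 bp in normoxia, as the plot of peak positions shows. These positions were not counted over all genes, so they cannot be called particular to cell cycle genes. Within 1 kb of the start alone, ZHX2 in hypoxia was at 22 of 33 genes (66.7%, against 56.1% of all promoters) and in normoxia at 11 (33.3%, against 27.6%). H3K27ac was there at 33 of 33 genes in hypoxia and in normoxia, against 64.8% and 64.1% of all promoters. CTCF was within 1 kb of the start at 26 genes in hypoxia (78.8%, against 55.3%) and at 25 in normoxia (75.8%, against 57.2%). PA Flag was there at 21 genes (63.6%, against 50.8%) and WT Flag at 33 of 33, against 59.0%.

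Many of these peaks overlap, by at least 1 bp, the promoter window of 300 bases itself. ZHX2 overlapped it at 20 of 33 genes in hypoxia (60.6%, against 48.6% of all promoters) and at 9 in normoxia (27.3%, against 20.3%). CTCF overlapped it at 25 genes in hypoxia (75.8%, against 44.3%) and at 20 in normoxia (60.6%, against 45.2%). H3K27ac overlapped it at 33 of 33 genes in hypoxia and in normoxia, against 62.7% and 62.0%. PA Flag overlapped it at 21 genes (63.6%, against 48.5%) and WT Flag at 33 of 33, against 55.8%. WT Flag and H3K27ac thus reached every one of these 33 promoters, and ZHX2 in normoxia the fewest. The lists differ in length, peak width and cut-off, so this order is not one of occupancy. In normoxia the ZHX2 list had 14586 peaks with a median width of 304 bp, and the H3K27ac list 42586 with 1422.5 bp.

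CTCF differed little between conditions at these genes. The hypoxia list held 31 of 42 (73.8%), against 59.6% of all genes, and the normoxia list also 31, against 61.9%. Both lists held 29 of the genes (against 56.7% of all) and neither held 9 (against 35.2%). BUB1B (fold 4.85, chr15:40161034-40161263) and CDC6 (4.76, chr17:40287785-40288080) had CTCF in hypoxia alone, against 2.86% of all genes. BIRC5 (4.60, chr17:78213952-78214440) and UBE2C (4.55, chr20:45812650-45812896) had it in normoxia alone, against 5.19%. BUB1B and CDC6 are also among the genes with ZHX2 in hypoxia alone, and at BUB1B the ZHX2 and CTCF peaks overlap. At CDC6 they do not. With the normoxia list cut to the length of the hypoxia list, CTCF was at 31 genes in hypoxia (against 59.6% of all) and 23 in normoxia (against 54.2%), with 8 genes in hypoxia alone (against 7.85%) and 0 in normoxia alone (against 2.43%). Among genes with H3K27ac, CTCF was at 31 of 41 cell cycle genes in hypoxia and in normoxia (75.6% in each), against 78.8% and 80.8% of all such genes.

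The strongest CTCF peaks were at a few genes and often away from the start. CDC25B, a phosphatase of mitotic entry, had a fold of 363 in hypoxia (chr20:3785865-3787257) and 452 in normoxia (chr20:3785642-3787235), both at the 99.6th percentile, beside CENPB. MCM3 had 137 in hypoxia and 181 in normoxia, but that peak lies at the far end of the gene (chr6:52263148-52265426 in hypoxia), not at the promoter shown above. PCNA had 110 in hypoxia and 124 in normoxia, 56 bp after its start in hypoxia. CDC25A had 104 in hypoxia and 144 in normoxia, and GINS2, a helicase cofactor, 50.0 in hypoxia and 54.4 in normoxia, each at the far end. E2F1, with 33.4 in hypoxia and 58.6 in normoxia, was the fifth of the normoxia list. Over all the genes with a peak the median best fold was low, 9.01 (33.4th percentile) in hypoxia and 10.3 (35.1st) in normoxia, against 16.6 (47.5th) and 21.9 (52.8th) over all genes with a peak. The replication genes had medians of 12.9 in hypoxia and 23.1 in normoxia, and the mitosis genes 7.46 in hypoxia and 7.03 in normoxia.

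ZHX2 and CTCF were found together at many of the genes. In hypoxia both lay at the ends of 23 of 42 genes (54.8%, against 46.2% of all). Of genes with CTCF, 23 of 31 cell cycle genes (74.2%) had ZHX2, against 77.6% of all genes with CTCF. Without CTCF the share was 6 of 11 (54.5%), against 24.9%. The 6 are MCM2, CDC45, RRM1, E2F8, CDK1 and AURKB, so the gene with the highest ZHX2 fold had no CTCF peak at its ends. The 24.9% also covers genes without H3K27ac, a mark at 97.6% of the cell cycle genes in hypoxia and at 65.2% of all genes. The share without CTCF was not counted among genes with H3K27ac. Of the 35 hypoxia ZHX2 peaks, 23 overlapped a CTCF peak in hypoxia (65.7%, against 68.8% of such peaks at all genes), and 35 overlapped H3K27ac in hypoxia, against 89.5%.

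**Figure D3:**
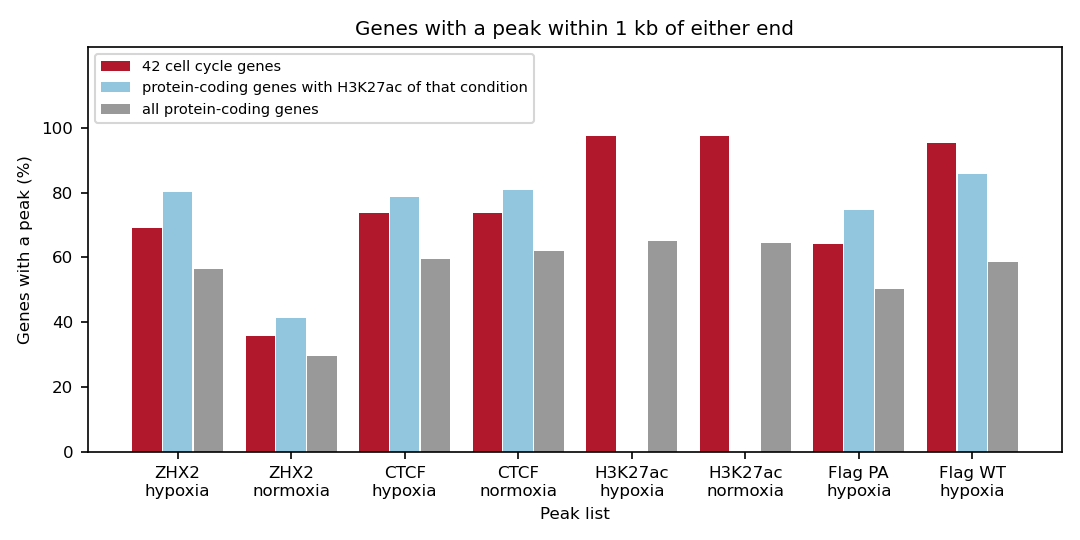
Share of genes with a peak within 1 kb of a gene end (y axis, percent), by list: the 42 cell cycle genes (red), protein-coding genes with H3K27ac of the same condition (light blue, not drawn for H3K27ac itself) and all 19821 protein-coding genes (grey). Red bars lie above grey bars in each list, and above the light blue bar only in the WT Flag list (95.2% against 85.7%).

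Of the 2 Flag lists, only WT gave a different picture from ZHX2 itself when set against genes with H3K27ac. PA Flag lay at 27 of 42 genes (64.3%), against 50.2% of all genes, and WT Flag at 40 of 42 (95.2%), against 58.5%. Flag was in the PA list and not in the WT list at none of the genes (0.479% of all), in the WT list and not in the PA list at 13 (31.0%, against 8.79%), in both at 27 (against 49.7%) and in neither at 2, ORC1 and UBE2C (against 41.0%). Among genes with H3K27ac in hypoxia, PA Flag was at 27 of 41 cell cycle genes (65.9%), against 74.7% of all such genes, and WT Flag at 40 of 41 (97.6%), against 85.7%. The cell cycle genes thus lay below active genes in general for PA and above them for WT. Among genes with WT Flag, 13 of 40 cell cycle genes (32.5%) had no PA region, against 15.0% of all genes with WT Flag and 13.4% of those that also had H3K27ac. With the WT list reduced to its widest regions, as many as the PA list holds, WT Flag was at 33 genes (against 52.6% of all), PA without WT at 1, E2F8 (against 2.00%), and WT without PA at 7 (against 4.48%), which were E2F2, RRM2, MCM6, MCM3, GINS2, CDC6 and BIRC5. At the start alone the gap was similar, with 12 of 33 genes (36.4%) in WT and not in PA, against 8.75% of all promoters.

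The 13 genes with WT and no PA Flag were 9 replication genes and 4 mitosis genes. Among genes with WT Flag they made 9 of 24 replication genes (37.5%) and 4 of 16 mitosis genes (25.0%), against 15.0% of all genes with WT Flag. The replication genes were CDC6, MCM3, MCM6, GINS2, RRM2, CCNE1, CDC25A, E2F1 and E2F2, and the mitosis genes AURKB, BUB1, BIRC5 and MKI67. By role they were 4 of 11 genes of licensing and the fork, 1 of 3 of nucleotide synthesis, 2 of 4 G1/S cyclins and kinases, 2 of 5 E2F factors, 0 of 6 genes of mitotic entry, 3 of 7 of the spindle and mitotic exit and 1 of 2 of mitotic chromosomes. All 6 genes of mitotic entry, CCNB1, CCNB2, CDK1, CDC25B, CDC25C and FOXM1, had a region in both lists. With only 15.0% of all genes with WT Flag lacking PA, 0 of 6 does not set mitotic entry apart, and each role holds few genes.

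The width of the regions moved with the difference. Flag lists give positions alone, and each of the 15163 PA regions that overlap a WT region has exactly its start and end, so a width cannot be compared between the forms. The PA list has 16019 regions and the WT list 31278. Genes in the WT list and not in the PA list had narrower regions, with a median of 954 bp (207 to 1813 bp, 13 genes) against 1863 bp (663 to 4006 bp, 27 genes) for those in both lists. Over all genes the medians were 790.5 bp and 2001.5 bp. The widest of the 13 were at MCM3 (1813 bp, chr6:52283684-52285496), E2F2 (1595 bp), MCM6 (1432 bp), CDC6 (1411 bp) and GINS2 (1364 bp). RRM2 (994 bp), BIRC5 (954 bp), AURKB (637 bp), CCNE1 (633 bp) and MKI67 (618 bp) came next, and E2F1 (521 bp), CDC25A (299 bp) and BUB1 (207 bp) were narrowest. The widest in both lists were at E2F3 (4006 bp), CDT1 (3989 bp) and CDC25B (3802 bp).

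When the genes with WT Flag were put into 4 classes of nearly equal size by the width of their widest region, the 13 cell cycle genes without PA all fell in the 2 narrower classes. From 200 to 1255 bp, 8 of 14 cell cycle genes had no PA region, against 48.3% of all genes in that class. From 1256 to 1823 bp it was 5 of 12, against 9.4%, and these 5 were replication genes, of 7 there, with 0 of 5 mitosis genes. From 1824 to 2570 bp and from 2571 to 20511 bp it was 0 of 8 and 0 of 6, against 2.21% and 0.31%. In the narrowest class 4 of 7 replication and 4 of 7 mitosis genes had no PA region. The part of region width in the difference between PA and WT was not tested further.

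**Figure D4:**
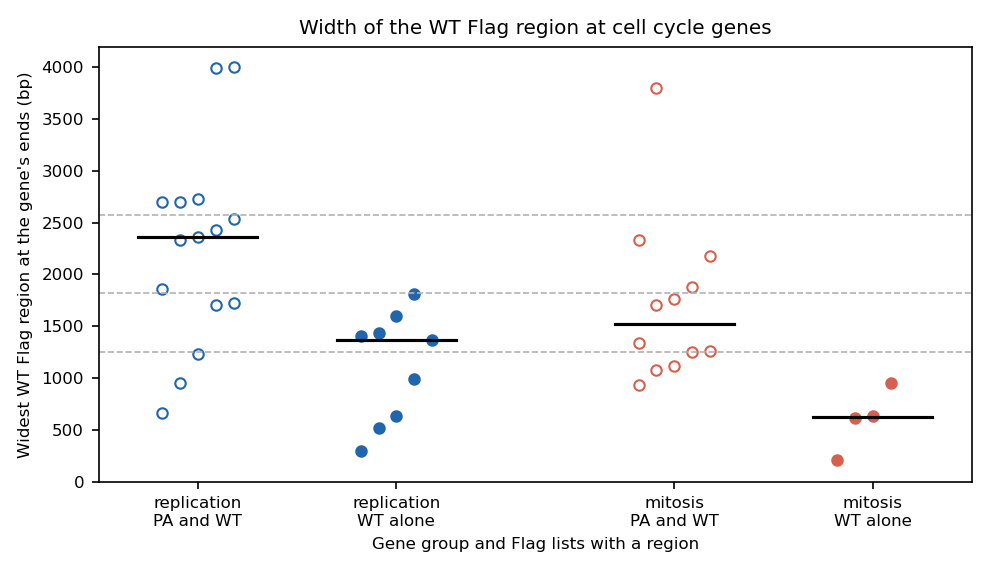
Width of the widest WT Flag region at each of the 40 cell cycle genes that have one (y axis, bp), for genes with a region in both lists (open points) and in the WT list alone (filled points), by group. Black lines are medians and dashed lines the borders of the 4 width classes. The 9 replication genes in the WT list alone reach 1813 bp and the 4 mitosis genes 954 bp, below the medians of 2363 bp and 1523 bp for the genes in both lists.

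Endogenous ZHX2 followed the Flag lists in part. Each of the 29 genes with ZHX2 in hypoxia had a WT Flag region, against 86.7% of all genes with ZHX2 in hypoxia, and 24 of 29 (82.8%) had a PA region, against 77.1%. In the other direction, 29 of 40 cell cycle genes with WT Flag (72.5%) had ZHX2 in hypoxia, against 83.4%. Of genes with both Flag forms 24 of 27 had it (88.9%, against 86.6%), and of genes with WT alone 5 of 13 (38.5%, against 65.2%). The 5 are CDC6, MCM6, GINS2, E2F1 and AURKB. WT Flag without ZHX2 was at 11 of 42 genes (26.2%), against 9.70% of all. The MCM3 and MKI67 promoters shown above are of this kind, with WT Flag, no PA region and no ZHX2 peak in hypoxia or normoxia.

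At the level of single peaks, 28 of the 35 hypoxia ZHX2 peaks (80.0%) overlapped a PA region, against 70.9% of such peaks at all genes, and 31 of 35 (88.6%) a WT region, against 80.4%. Peaks without a WT region were at E2F8, CDK1, CDC20 and AURKB. These 4 genes still had a WT Flag region elsewhere in their windows. The hypoxia ZHX2 peak at the far end of E2F1 overlaps a PA region that ends just outside the window, so E2F1 counts as a gene without PA.

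Promoter letters did not divide the Flag classes clearly. E2F letters lay in 7 of 12 promoters with WT alone and in 10 of 20 with both forms. CHR letters lay in 3 of 12 and 8 of 20, and CCAAT in 10 of 12 and 14 of 20. Median GC content was 65.0% with WT alone and 64.7% with both.

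Replication and mitosis genes can be set beside each other and beside all genes in each list. ZHX2 in hypoxia was at 18 of 25 replication genes (72.0%) and 11 of 17 mitosis genes (64.7%), against 56.3% of all genes, and in normoxia at 10 (40.0%) and 5 (29.4%), against 29.7%. ZHX2 in hypoxia alone was at 8 replication and 6 mitosis genes, against 28.4% of all genes. CTCF in hypoxia was at 19 (76.0%) and 12 (70.6%), against 59.6%, and in normoxia at 18 (72.0%) and 13 (76.5%), against 61.9%. PA Flag was at 15 replication genes (60.0%) and 12 mitosis genes (70.6%), against 50.2%, and WT Flag at 24 (96.0%) and 16 (94.1%), against 58.5%. The order of the 2 groups thus turned between the ZHX2 and PA Flag lists, and with 17 and 25 genes a few genes decide each gap.

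**Figure D5:**
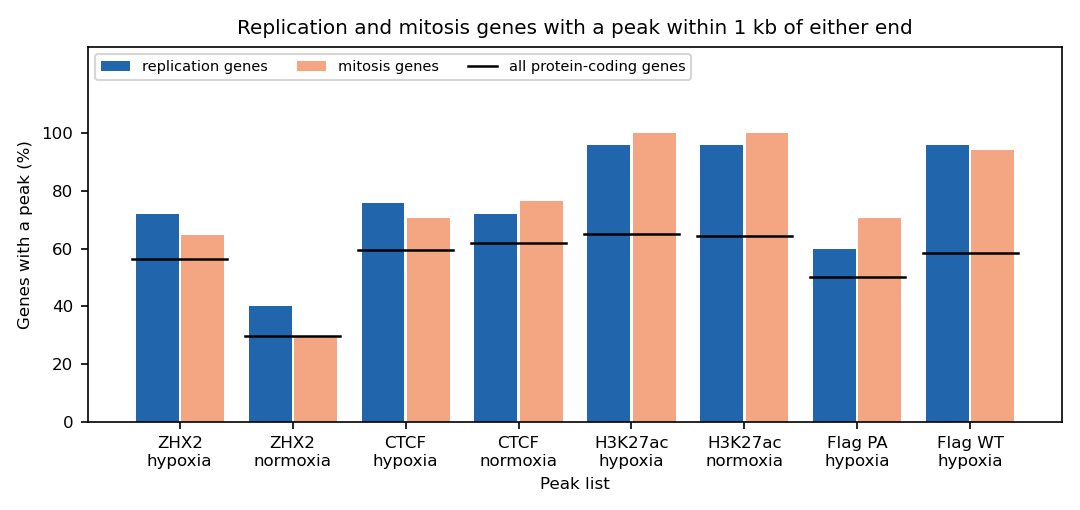
Share of the 25 replication genes (blue bars), the 17 mitosis genes (orange bars) and all 19821 protein-coding genes (black lines) with a peak within 1 kb of a gene end (y axis, percent), by list. Replication genes lie above mitosis genes in the ZHX2 lists (72.0% and 64.7% in hypoxia) and below them in the PA Flag list (60.0% and 70.6%).

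By role, ZHX2 in hypoxia lay at 10 of 12 genes of licensing and the fork, 2 of 3 of nucleotide synthesis, 1 of 4 G1/S cyclins and kinases, 4 of 5 E2F factors, 5 of 6 of mitotic entry, 5 of 8 of the spindle and mitotic exit and 0 of 2 of mitotic chromosomes, and at CHEK1 and CCNA2. In normoxia the counts in the same order were 5, 1, 1, 3, 3, 2 and 0, with none at CHEK1 or CCNA2. The share of all genes was 56.3% in hypoxia and 29.7% in normoxia. With 1 to 12 genes a role these are descriptions of small counts, and no order of the roles is drawn from them.

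A further 54 cell cycle genes outside the 42, among them cyclin D, RB family, checkpoint and kinetochore genes, were counted in the same way. ZHX2 lay at 40 of 54 in hypoxia (74.1%, against 56.3% of all genes) and at 16 in normoxia (29.6%, against 29.7%). It was in hypoxia alone at 25 (46.3%, against 28.4%) and in normoxia alone at 1, the kinase gene PKMYT1 (1.85%, as of all genes). CTCF lay at 38 in hypoxia (70.4%, against 59.6%) and 37 in normoxia (68.5%, against 61.9%), and H3K27ac at 53 in each (98.1%, against 65.2% and 64.4%), all but CCND2. PA Flag lay at 42 (77.8%, against 50.2%) and WT Flag at 51 (94.4%, against 58.5%). Of the 51 genes with WT Flag, 9 had no PA region (17.6%), against 32.5% of the 40 cell cycle genes above and 15.0% of all genes, so these further genes lay nearer to genes in general. The 9 were CDC7, CDK6, CDKN1C, CENPA, CENPF, INCENP, MYBL2, PKMYT1 and POLD1. Their highest ZHX2 folds in hypoxia were at ATM, the DNA damage kinase gene (8.51 in hypoxia, 3.27 in normoxia), and CCND3, cyclin D3 (8.09 in hypoxia, 3.10 in normoxia). Both lie below the folds of RRM1, MCM5 and FOXM1.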

How the data were processed

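The 28 samples were grouped by title and antibody: 8 immunoprecipitated groups of 2 and 12 samples without antibody, 4 of them titled Flag and kept apart. The submitters' processing notes name cutadapt, Bowtie2, MACS2 and the build GRCh38 (hg38), with no version of a tool. The sources used here do not give the depth, the use of inputs or any pooling of the 2 samples, and with the depth unknown a peak has no error. The score, the fold enrichment (a ratio over background) and the −log10 q of each peak are the authors' values as deposited. Narrow ZHX2 and CTCF peaks have a summit, broad H3K27ac peaks have none, and Flag lists hold positions alone. The lowest −log10 q in hypoxia was 1.3 for ZHX2, 5.09 for CTCF and 3.47 for H3K27ac. In normoxia it was 1.3, 5.0 and 3.49 in the same order.

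Overlaps were counted with python 3.11.15, numpy 2.4.6 and pandas 2.3.3, plots were drawn with matplotlib 3.10.9, and the counting was tested on simulated data. Genes are those of the RefSeq table of GRCh38.p14 (chromosomes 1 to 22 and X). With 1 list a group no test or error could be computed, so counts are descriptive. The members, gene lists and letters were chosen with earlier results of these data known. Values are given for the 5 highest folds of each list (by width, up to 10, in Flag lists), for genes that differ between paired lists and for genes without H3K27ac. Alternatives were a 3 kb window, the gene start alone, the peak centre, −log10 q of at least 5, the upper 50% of a list, lists of equal length, genes with H3K27ac as background and a narrower split of the genes.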

Additional observations from a re-analysis of the deposited data

How the results depend on the processing

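Of 132 values recomputed under the alternatives, 105 stayed within 1.5 times the reported count and 27 did not. A minimum −log10 q of 5 moved none beyond 1.5 times, but it lowered the ZHX2 counts. ZHX2 was then at 20 genes in hypoxia (29 before), 10 in normoxia (15 before) and 10 in hypoxia alone (14 before). CDC20, MCM6, CCNA2, MCM7, CHEK1, CCNB2 and TYMS left the class of hypoxia alone, and CCNE2, GINS2 and CDC45 joined it. Taking genes with H3K27ac as the background could not move a count, since every counted gene has the mark. It turned the comparison with other genes, for ZHX2 in hypoxia to 70.7% against 80.2% (69.0% against 56.3% over all genes), in normoxia to 36.6% against 41.2% (35.7% against 29.7%), for CTCF to 75.6% in each condition against 78.8% in hypoxia and 80.8% in normoxia, and for PA Flag to 65.9% against 74.7% (64.3% against 50.2%), and not for WT Flag, with 97.6% against 85.7%. In the upper 50% of each list, ZHX2 was at 17 genes in hypoxia, CTCF at 11 in hypoxia and 13 in normoxia, ZHX2 in hypoxia alone at 8 and in normoxia alone at 1, and CTCF in hypoxia alone at 0. With lists of equal length, ZHX2 in hypoxia was at 15 genes, in hypoxia alone at 4 and in normoxia alone at 4, CTCF in hypoxia alone at 8 and in normoxia alone at 0, PA Flag without WT at 1 (E2F8) and WT without PA at 7. With the peak centre in the window, ZHX2 in normoxia alone was at 1 gene, H3K27ac in hypoxia alone at 2 and in normoxia alone at 1. With a 3 kb window ZHX2 in normoxia alone and CTCF in hypoxia alone were at 1 each, and at the gene start only ZHX2 in normoxia alone and CTCF in normoxia alone were at 1 each. The narrower split has 15 replication genes, those of licensing, the fork and nucleotide synthesis, and 16 mitosis genes, without CCNA2. Replication genes then numbered 6 for ZHX2 in normoxia, 11 and 10 for CTCF in hypoxia and normoxia and 14 and 14 for H3K27ac. For PA Flag they numbered 9 and for WT Flag 14. These counts are lower since fewer genes were counted.

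No paired analysis was possible because each group has 1 deposited list, and for the same reason there were no fits without a replicate. Read depth is unknown, so absence from a list is not absence of the protein. Flag lists have no fold, and their equal lengths and upper 50% were taken by width.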
